A study of Mus musculus with 5 samples.

Results

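The cadherins and protocadherins of murine lung cancer-associated fibroblasts (CAFs) were compared between cells that carried an empty vector (CAF-vec) and cells that overexpressed miR-200 (CAF-200). The members were all genes of the table whose Ensembl identifier belongs to a mouse gene named Cdh followed by a digit or Pcdh, which gave 91 of 21835 genes. They were 23 cadherins, 12 non-clustered protocadherins and 56 clustered protocadherins, of which 13 lie in the alpha cluster, 22 in the beta cluster and 21 in the gamma cluster. CAF-vec comprised 2 samples and CAF-200 comprised 3, and both were lung CAFs in alpha-MEM with serum after lentiviral infection. CAF-vec is labelled WT control, and CAF-200 carried the miR-200b/a/429 cluster in pLVX-Neo, with selection in G418 according to the labels. Age, strain and clone are not given in the sources used here, and nothing there states that the samples of a group came from separate transductions or cultures, so *p* values may measure technical spread only. Effects of miR-200 cannot be told apart from other differences between the transduced populations. RNA was bulk mRNA, in which fewer cells of a type and less RNA per cell cannot be told apart.

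Cadherins are transmembrane proteins whose extracellular repeats bind cadherins of neighbouring cells when calcium is present, and whose tails, in the classical members, hold catenins that link them to actin. E-cadherin joins epithelial cells, while N-cadherin and cadherin-11 are the usual cadherins of fibroblasts. Protocadherins have weaker adhesion and no catenin site. Most of the clustered protocadherins are made from 1 variable first exon each, and in the alpha and gamma clusters that exon is spliced to constant exons shared by the whole cluster, whereas beta genes have no constant exons. The miR-200 family is known for silencing *Zeb1* and *Zeb2*, which encode repressors of the E-cadherin gene *Cdh1*. The comparison therefore asked which adhesion genes differed in fibroblasts that received this family.

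The mature miRNAs of the overexpressed cluster are shown because their seeds (bases 2 to 8, in capitals) decide which transcripts can be matched. miR-200b-3p and miR-429-3p share 1 seed, matched by CAGTATT in a transcript, and miR-200a-3p has another, matched by CAGTGTT. Sequences are from RefSeq and coordinates are those of GRCm38.
miR-200b-3p, chr4:156055685-156055706, minus strand: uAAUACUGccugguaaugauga
miR-200a-3p, chr4:156054911-156054932, minus strand: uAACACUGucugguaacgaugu
miR-429-3p, chr4:156053916-156053937, minus strand: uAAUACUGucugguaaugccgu

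A match to either heptamer was present in the longest annotated 3′-UTR of 22 of the 91 members (24.2%), with 31 matches in all, against 5400 of 20903 genes with an annotated 3′-UTR (25.8%). Matches lay in 6 cadherins, 8 non-clustered protocadherins and 8 beta protocadherins, and in 0 members of the alpha cluster and 0 of the gamma cluster. Shown here are 4 sites, in *Cdh11* (the fibroblast cadherin-11), *Cdh13* (T-cadherin, listed higher in CAF-vec), *Pcdh9* (a protocadherin that rose) and *Pcdh19* (a member of high level whose groups overlapped). The match is in capitals, the sequence is that of the transcript, and the coordinates (GRCm38) are those of the match.
Cdh11 site, chr8:102633603-102633609, minus strand: catacaaatatCAGTATTctgacatgtac
Cdh13 site, chr8:119323807-119323813, plus strand: gtgtatagaccCAGTATTtgtgtagaaga
Pcdh9 site, chr14:93015003-93015009, minus strand: tgtaagtcaatCAGTGTTaaagtatttgt
Pcdh19 site, chrX:133586846-133586852, minus strand: acttcctgattCAGTGTTttcccaatcat

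The genes with a site did not move one way. Of the 4 genes whose sites are shown, *Cdh11* and *Pcdh9* rose, *Cdh13* was listed lower in every CAF-200 sample and was not tested, and the values of *Pcdh19* overlapped between the groups. Of the 12 tested members with a match, 4 fell (*Pcdh1*, *Pcdhb6*, *Pcdhb19* and *Pcdhb22*) and 2 rose, with a median log2 fold-change of -0.22. *Pcdhb6* passed the filter for low values only through CAF-vec. Among the 33 tested members without a match, 13 fell and 4 rose, with a median of -0.33. These 13 include *Cdh26* and *Pcdhga2*, which also passed the filter only through CAF-vec, so the filter fixed part of both counts. These counts mix families, since the gamma genes hold no match. Within the clustered members the median was -0.34 for the 8 with a match and -0.33 for the 24 without, and outside the clusters it was 0.25 for the 4 with a match and -0.15 for the 9 without. Of the 3650 tested genes with a match, 17.2% fell and 11.3% rose (median -0.066), and of the 8410 without one, 19.4% fell and 12.2% rose (median -0.11). A match is a string of letters and does not show that a miRNA binds there.

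The values are in CPM, normalized read numbers scaled to nearly the same total in each sample. Of the 91 members, 16 were listed at 0 in every sample, 45 passed the filter of at least 0.5 CPM in at least 2 samples, and 46 did not pass it. Fold-changes are CAF-200 minus CAF-vec on log2(CPM + 0.5), which understates the change of low genes, with an SE and a *p* value from limma, adjusted by Benjamini-Hochberg over the 12175 genes tested. "Rose" and "fell" refer to an adjusted *p* under 0.05. The depth of each sample is unknown. The CAF-vec samples differed from each other more (SD of log2 differences 0.49) than any pair of CAF-200 samples (0.192 to 0.204). The 3 CAF-200 samples had the same 6127 genes at 0, with 0 genes at 0 in only 1 or 2 of them. CAF-vec had 7898 and 7413 genes at 0. Whether the CAF-200 columns were processed jointly, and whether that narrowed their spread, on which the *p* values rest, was not tested. Fibroblast markers summed to 7457 to 14148 CPM (CAF-vec) and 6609 to 7302 CPM (CAF-200), with 9 of 10 at 1 CPM or more in every sample, whereas *Fap*, a fibroblast activation marker, was below that level. Of the fibroblast markers *Dcn* (2.75), *Lum* (2.82) and *Thy1* (1.46, log2 fold-changes) rose and passed the stricter call, and 0 fell, although the sum was lower. The lower sum rested largely on CAF-vec 1, where *Col1a1* and *Col1a2* were 4613 and 5185 CPM. They were 2003 and 2567 CPM in CAF-vec 2 and at most 1719 and 2284 CPM in CAF-200. Sums of 8 epithelial markers (3 at 0 throughout) were 0.0843 to 0.228 CPM (CAF-vec) and 0.035 to 0.93 CPM (CAF-200), and those of 7 endothelial markers (3 at 0 throughout) were 0.369 to 0.809 and 0.902 to 1.55 CPM, through *Egfl7* (0 and 0.33 CPM in CAF-vec and 1.47, 1.19 and 0.718 CPM in CAF-200), which passed the filter through CAF-200 alone. Macrophage markers summed to 13.4 to 15.0 CPM (CAF-vec) and 15.6 to 16.6 CPM (CAF-200). Of these *Lyz2* was 1.11 and 1.99 CPM in CAF-vec and 7.48, 7.16 and 6.48 CPM in CAF-200 and rose (log2 fold-change 1.91, limma adjusted *p* = 0.00395), whereas *Csf1r* (-0.46) and *Cd14* (-0.44) did not pass. *Adgre1*, of the same list, was at 0 in every sample, and *Ptprc* was at 0 in CAF-vec and at most 0.0404 CPM in CAF-200. Other lists moved with the groups. The 5 smooth muscle and pericyte markers summed to 101.6 to 133.8 CPM (CAF-vec) and 685 to 738 CPM (CAF-200), through *Acta2* (log2 fold-change 2.63) and *Cnn1* (2.79), while *Myh11* and *Rgs5* were near 0. The paper reports less alpha-SMA, the protein of *Acta2*, in CAF-200 by immunocytochemistry, so these RNA values went the other way. The 5 Schwann and neural markers summed to 5.91 to 6.58 CPM and 25.6 to 28.8 CPM, through *Ncam1*, with *Sox10* at 0 in every sample and *S100b*, which passed the filter through CAF-vec alone, at 1.05 and 0.868 CPM in CAF-vec and 0.242, 0.373 and 0.432 CPM in CAF-200. The part of these markers in the results on cadherins and protocadherins was not tested.

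At an adjusted *p* under 0.05, 17 of the 45 tested members fell (37.8%) and 6 rose (13.3%), and 22 did neither. By family, 13 of the 32 tested clustered protocadherins fell and 0 rose (median log2 fold-change -0.33), and of the 13 tested cadherins and non-clustered protocadherins 4 fell and 6 rose (median 0.10). Of all genes tested, 18.6% were lower and 11.9% higher by that call. By the stricter call (adjusted *p* under 0.01, log2 fold-change beyond 1), *Cdh22* and *Pcdhgc3* fell (2 members, 4.44%) and *Pcdh7* rose (1 member, 2.22%), where the shares of all genes were 2.35% lower and 2.37% higher. With any 1 CAF-200 sample left out, 0 members passed that call, and over all genes 0 were lower and 0 to 1 higher by it. The median log2 fold-change of the tested members was -0.29, and that of all genes was -0.094. A negative value was seen for 32 of the 45 (71.1%) and for 58.3% of all genes. The 3 members *Cdh26*, *Pcdhb6* and *Pcdhga2* passed the filter only through their CAF-vec values, so they had to differ. Without them 14 of 42 tested members fell (33.3%) and 6 rose (14.3%), and the median was -0.28. *Cdh22*, *Cdh18*, *Pcdh7*, *Pcdh18* and *Pcdhgc3* kept an adjusted *p* under 0.05 under every alternative tried (5 of the 23 called members). Leaving out 1 CAF-200 sample ended the call for 17 of the 23, and for 14 of them whichever of the 3 was left out. Without CAF-200 3, only 3 members fell and 3 rose, and without CAF-200 1 or CAF-200 2 the numbers that fell were 6 and 5. Calls over all genes dropped in the same fits, from 2265 to 485 to 724 genes lower and from 1446 to 435 to 536 genes higher.

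**Figure D1:**
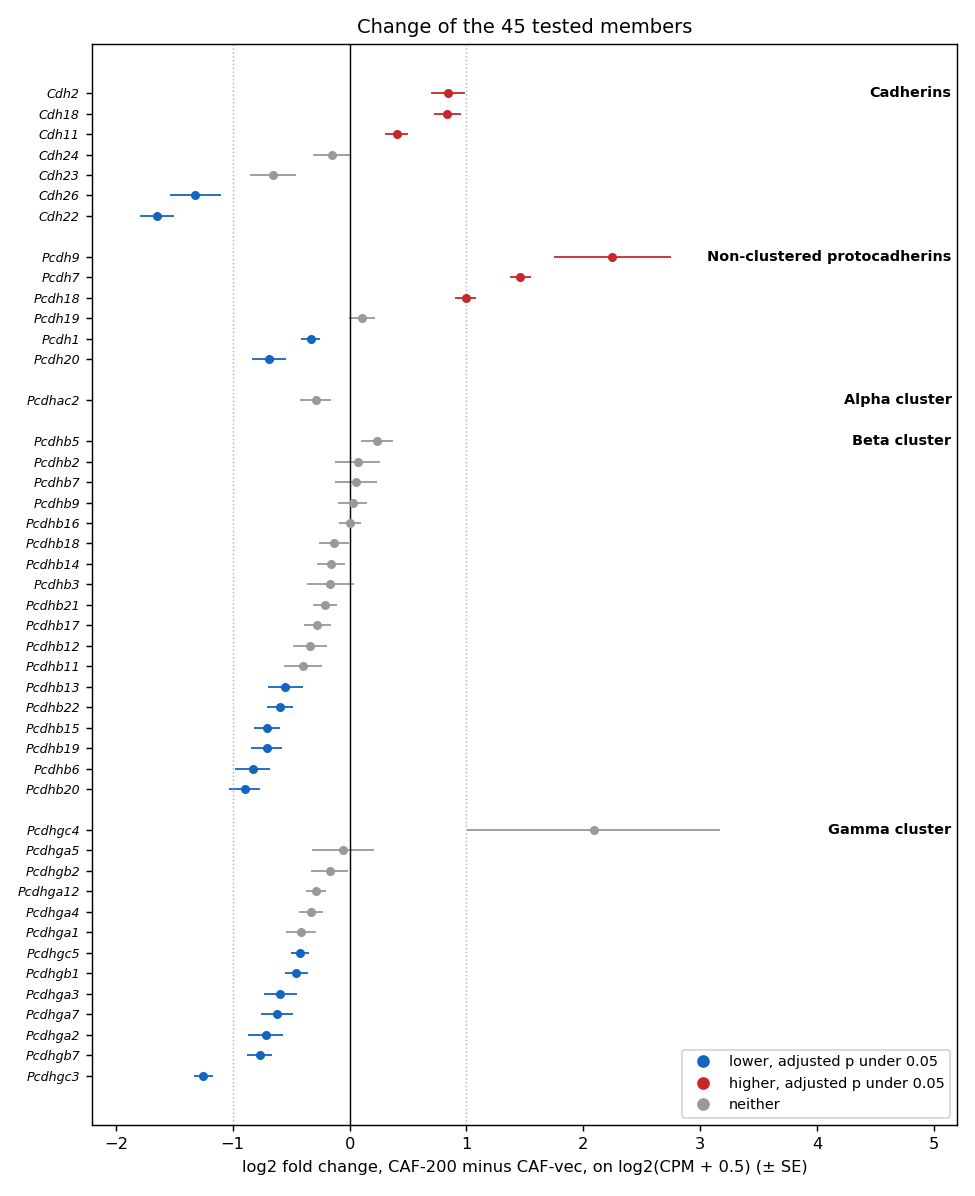
The log2 fold-change (CAF-200 minus CAF-vec, horizontal axis) of each of the 45 tested members is drawn as a point with its standard error, grouped by family, with blue for members that fell, red for members that rose and grey for the rest. Dotted lines mark a log2 fold-change of -1 and 1. Red points lie among the cadherins and non-clustered protocadherins, and the coloured points of the beta and gamma clusters are all blue.

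The classical cadherins that are typical of mesenchymal cells were higher in CAF-200. N-cadherin (*Cdh2*, ENSMUSG00000024304), which holds fibroblasts and neurons together, was 47.3 and 63.2 CPM in CAF-vec and 96.5, 93.0 and 107 CPM in CAF-200. Every CAF-200 value lay above both CAF-vec values, and the log2 fold-change was 0.84 (SE 0.146, limma adjusted *p* = 0.0118). Without 1 CAF-200 sample, the adjusted *p* of *Cdh2* was 0.052 to 0.0637. Cadherin-11 (*Cdh11*), a type II cadherin of fibroblasts and osteoblasts, was 48.2 and 53.2 CPM in CAF-vec and 65.3, 64.2 and 72.1 CPM in CAF-200. The groups did not overlap and the log2 fold-change was 0.40 (SE 0.0981, limma adjusted *p* = 0.03), but the adjusted *p* was 0.098 to 0.129 without 1 CAF-200 sample. Per kb of exon, *Cdh2* had a mean of 6.85 CPM in CAF-vec and 12.2 CPM in CAF-200, and *Cdh11* one of 5.69 and 7.55 CPM. In CAF-200 these were the highest levels among the cadherins, while in CAF-vec *Cdh22* was above both (7.29 CPM). These 2 genes made up 67.7 to 76.1% of the summed cadherin CPM in CAF-vec and 86.6 to 88.6% in CAF-200. The cadherin sum itself was 140.9 and 153 CPM in CAF-vec and 186.8, 180.2 and 201.9 CPM in CAF-200. *Cdh2* lies on chromosome 18 (16588877 to 16809246, minus strand of GRCm38) and *Cdh11* on chromosome 8 (102632095 to 102785642, minus strand).

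*Cdh18*, a type II cadherin known mainly from the nervous system (chromosome 15, 22549022 to 23474418, plus strand), was at a lower level and also rose. It was 4.45 and 5.18 CPM in CAF-vec and 9.26, 8.59 and 9.09 CPM in CAF-200. The groups were well apart, with a log2 fold-change of 0.84 (SE 0.112, limma adjusted *p* = 0.00636). *Cdh24*, a type II cadherin, was 6.09 and 4.68 CPM in CAF-vec and 5.35, 4.33 and 4.63 CPM in CAF-200, so the groups overlapped (limma adjusted *p* = 0.474, log2 fold-change -0.15).

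*Cdh22*, a type II cadherin first studied in brain and pituitary (chromosome 2, 165111507 to 165234853, minus strand), had the lowest log2 fold-change of the 45 tested members on log2(CPM + 0.5), whereas with a pseudocount of 0.1 CPM that of *Cdh26* was lower (-2.48, against -1.69 for *Cdh22*). It was 30.9 and 23.0 CPM in CAF-vec and 8.57, 7.97 and 8.03 CPM in CAF-200. The CAF-200 samples were close to each other and all lay below both CAF-vec samples, with a log2 fold-change of -1.65 (SE 0.145, limma adjusted *p* = 0.00284). Without 1 CAF-200 sample the adjusted *p* was 0.0223 to 0.0279. Its mean level per kb of exon was 7.29 CPM in CAF-vec, the highest of the cadherins in that group, and 2.21 CPM in CAF-200. *Cdh26*, a cadherin of epithelia (chromosome 2, 178430531 to 178487366, plus strand), was 1.09 and 0.998 CPM in CAF-vec and 0.0709, 0.281 and 0.0319 CPM in CAF-200. It passed the filter through CAF-vec alone, so its lower values in CAF-200 are given as a description. *Cdh23*, a part of the tip links of hair cells, was 2.27 and 1.95 CPM in CAF-vec and 1.37, 1.31 and 0.828 CPM in CAF-200, without overlap, and missed the threshold (limma adjusted *p* = 0.0532, log2 fold-change -0.66).

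The cadherins that mark other cell types were close to 0. E-cadherin (*Cdh1*, chromosome 8, 106603351 to 106670246) was at 0.0404, 0.000153 and 0.0106 CPM in CAF-200 and listed at 0 in either CAF-vec sample. The gene was thus near 0 in every sample, while *Zeb1*, the target of miR-200 that represses it, was 43.5 and 50.7 CPM in CAF-vec and 37.8, 37.5 and 34.1 CPM in CAF-200. The log2 fold-change of *Zeb1* was -0.36 (SE 0.107, limma adjusted *p* = 0.0504), just outside the threshold, and that of *Zeb2* was -0.23 (limma adjusted *p* = 0.374). P-cadherin (*Cdh3*) was 0.126 and 0.109 CPM in CAF-vec and 0.171, 0.162 and 0.152 CPM in CAF-200. VE-cadherin (*Cdh5*), the cadherin of endothelial junctions, was 0.0475 and 0.0195 CPM and 0.0608, 0.112 and 0.122 CPM. Both were below the filter, so neither was tested. T-cadherin (*Cdh13*), which is anchored by a lipid and has no tail, was 0.333 and 0.469 CPM in CAF-vec and 1.16e-05, 3.05e-05 and 0.0105 CPM in CAF-200. Values above 0 and below 0.005 CPM occur in the CAF-200 columns alone, so low values are not on the same footing in both groups and no fold is given for *Cdh13*. The other 5 untested cadherins with a value above 0 and the 7 at 0 throughout (*Cdh4*, *Cdh7*, *Cdh8*, *Cdh9*, *Cdh10*, *Cdh16* and *Cdh20*) complete the 23.

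**Figure D2:**
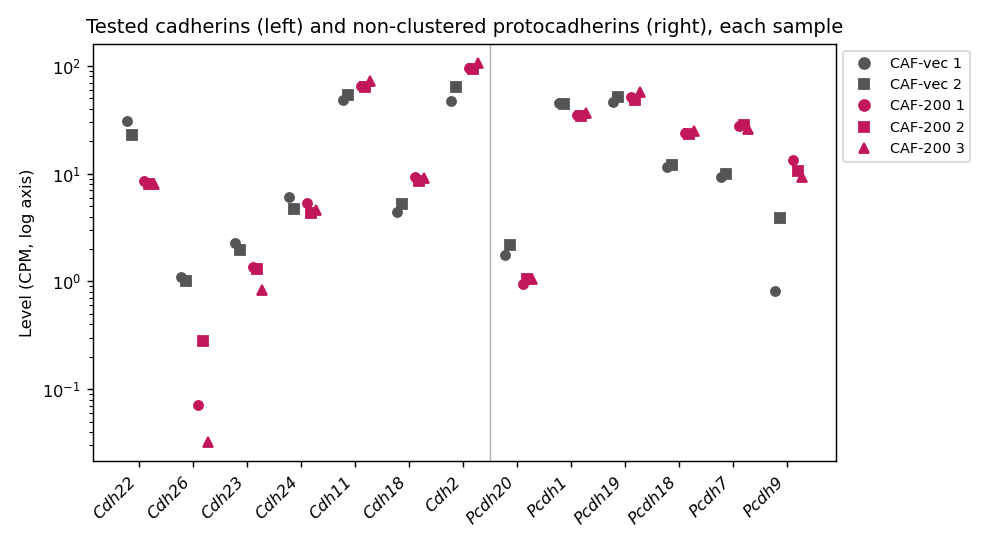
The level in CPM (log axis) of the 7 tested cadherins and 6 tested non-clustered protocadherins is drawn for each of the 2 CAF-vec samples (grey) and 3 CAF-200 samples (red). For *Cdh22*, *Cdh26*, *Cdh23*, *Pcdh20* and *Pcdh1* the CAF-200 points lie below the CAF-vec points, for *Cdh2*, *Cdh11*, *Cdh18*, *Pcdh18*, *Pcdh7* and *Pcdh9* they lie above, and for *Cdh24* and *Pcdh19* they overlap.

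Among the non-clustered protocadherins, 3 of the 6 tested rose and 2 fell, beside 11.9% and 18.6% of all genes. *Pcdh7*, a delta protocadherin that binds the phosphatase inhibitor SET, was 9.37 and 9.90 CPM in CAF-vec and 27.5, 28.5 and 26.2 CPM in CAF-200. The samples of each group were close and the groups far apart, with a log2 fold-change of 1.46 (SE 0.0902, limma adjusted *p* = 0.00145). *Pcdh18*, a delta protocadherin that binds the adaptor Dab1, was 11.6 and 12.1 CPM in CAF-vec and 23.8, 23.4 and 24.9 CPM in CAF-200. Its log2 fold-change was 0.99 (SE 0.0869, limma adjusted *p* = 0.00284), just short of the fold threshold of the stricter call. The promoters of *Pcdh7* and *Pcdh18*, which rose, and of *Cdh22*, which fell, are shown because ZEB proteins bind the E-box CAGGTG, which reads as CACCTG when taken from the other strand. Each window of 300 bases spans the start of the gene as RefSeq places it on GRCm38, and capitals mark an E-box.
Pcdh7 promoter, chr5:57717831-57718130, plus strand: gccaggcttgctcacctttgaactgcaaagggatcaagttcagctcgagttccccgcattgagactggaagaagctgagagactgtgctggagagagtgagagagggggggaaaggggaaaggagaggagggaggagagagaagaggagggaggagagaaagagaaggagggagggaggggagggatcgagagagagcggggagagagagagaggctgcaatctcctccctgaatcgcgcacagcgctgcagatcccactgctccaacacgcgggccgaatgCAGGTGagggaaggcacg
Pcdh18 promoter, chr3:49757267-49757566, minus strand: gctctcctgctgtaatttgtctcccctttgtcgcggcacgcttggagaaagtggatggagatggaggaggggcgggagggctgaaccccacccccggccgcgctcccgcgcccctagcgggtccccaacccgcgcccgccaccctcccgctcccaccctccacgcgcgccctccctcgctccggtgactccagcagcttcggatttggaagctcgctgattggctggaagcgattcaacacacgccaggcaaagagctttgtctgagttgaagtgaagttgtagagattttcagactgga
Cdh22 promoter, chr2:165234688-165234987, minus strand: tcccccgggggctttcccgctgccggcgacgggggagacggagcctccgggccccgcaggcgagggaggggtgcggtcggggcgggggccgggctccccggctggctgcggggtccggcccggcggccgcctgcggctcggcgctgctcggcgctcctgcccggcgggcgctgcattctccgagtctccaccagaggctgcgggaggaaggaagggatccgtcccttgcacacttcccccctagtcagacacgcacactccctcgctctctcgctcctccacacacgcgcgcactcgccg

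The *Pcdh7* window held 1 such E-box, 33 bases after the start, and those of *Pcdh18* and *Cdh22* held 0. Promoters were matched for 22 members, with 25 windows, and 5 of these windows (20.0%) held the E-box on either strand, against 20.2% of the 32851 windows of all genes. Counted by gene, 3 of the 22 members (13.6%) held it, against 22.6% of 27025 genes. The 3 members concerned were *Cdh7*, *Pcdh15* and *Pcdh7*, and the first was at 0 in every sample.

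*Pcdh9*, a delta protocadherin of the nervous system (chromosome 14, 93013410 to 93890679, minus strand), was 0.814 and 3.90 CPM in CAF-vec and 13.3, 10.6 and 9.24 CPM in CAF-200. All CAF-200 samples were higher, but the CAF-vec samples were far apart, so the log2 fold-change of 2.25 had a standard error of 0.499 (limma adjusted *p* = 0.0229). It was 1.37 without CAF-vec 1 and 3.12 without CAF-vec 2, and the adjusted *p* was 0.0787 to 0.0797 without 1 CAF-200 sample. *Pcdh1*, a protocadherin of airway epithelium, was 44.8 and 44.4 CPM in CAF-vec and 35.3, 34.1 and 36.7 CPM in CAF-200. The groups did not overlap and the fall was small (limma adjusted *p* = 0.0317, log2 fold-change -0.33, SE 0.0824). Its adjusted *p* was 0.0846 when each sample was centred on its median and 0.109 to 0.148 without 1 CAF-200 sample. *Pcdh20* (chromosome 14, 88464743 to 88471396, minus strand) was 1.75 and 2.18 CPM in CAF-vec and 0.942, 1.06 and 1.06 CPM in CAF-200. Its log2 fold-change was -0.69 (limma adjusted *p* = 0.0202), and the adjusted *p* was 0.0766 to 0.0836 without 1 CAF-200 sample. *Pcdh19*, an X-linked protocadherin that associates with N-cadherin, was 46.1 and 51.0 CPM in CAF-vec and 51.6, 48.0 and 57.5 CPM in CAF-200. The groups overlapped (limma adjusted *p* = 0.494, log2 fold-change 0.10). The 6 untested members were *Pcdh10*, at 0 in every sample, and *Pcdh8*, *Pcdh11x*, *Pcdh12*, *Pcdh15* and *Pcdh17*, whose highest value in any sample was 0.0693 CPM. The sum over the 12 genes was 114.5 and 123.6 CPM in CAF-vec and 152.5, 145.6 and 155.7 CPM in CAF-200.

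The clustered protocadherins are adjacent on chromosome 18 and were first read as 3 sums, because genes of a cluster share exons and the estimate for 1 gene depends on how reads of the shared exons were divided. Of the exonic bases of a member, 48.6 to 54.9% were shared with other members in the alpha cluster (13 of 13 genes) and 27.8 to 66.8% in the gamma cluster (21 of 21). In the beta cluster 2 of 22 genes shared bases, up to 9.7%. The gamma sum was 515.6 and 564.2 CPM in CAF-vec and 325.0, 312.4 and 305.9 CPM in CAF-200. All CAF-200 sums were below both CAF-vec sums, with a log2 difference of the mean log2 sums of -0.78. The beta sum was 95.3 and 92.8 CPM in CAF-vec and 79.0, 77.8 and 77.1 CPM in CAF-200, again without overlap (log2 difference -0.27). The alpha sum was 2.04 and 2.17 CPM in CAF-vec and 1.85, 1.89 and 1.77 CPM in CAF-200 (log2 difference -0.16). The sums have no test of their own. With each sample centred on its median the differences were -0.68 for gamma, -0.17 for beta and -0.080 for alpha.

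**Figure D3:**
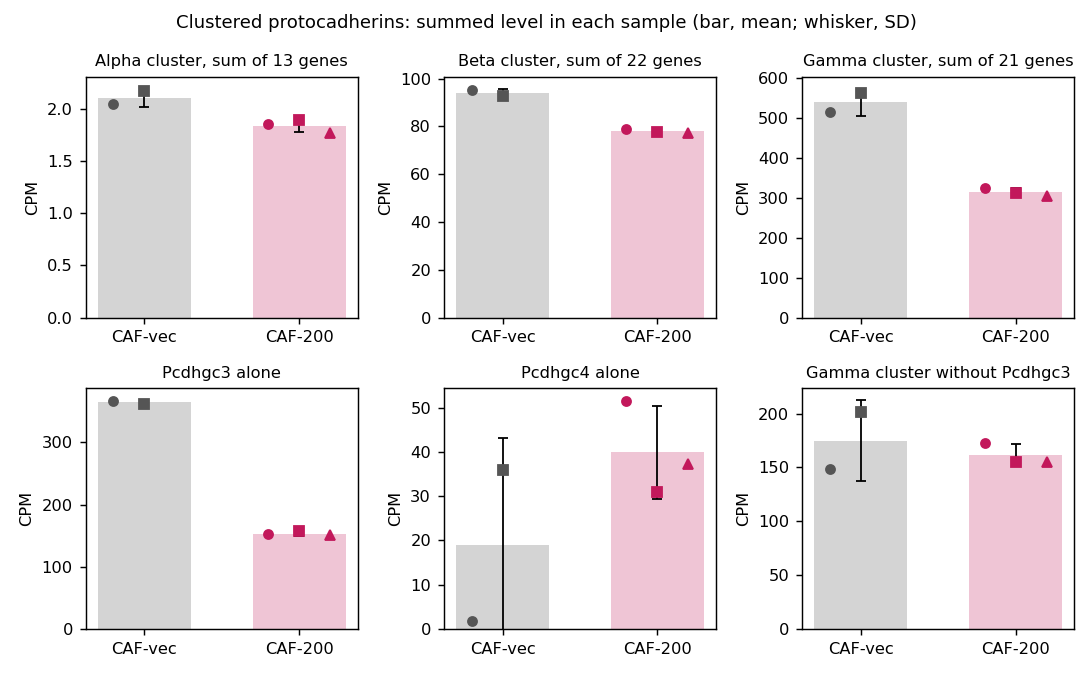
Summed CPM (vertical axes, each from 0) of the alpha, beta and gamma clusters, and of *Pcdhgc3*, *Pcdhgc4* and the gamma cluster without *Pcdhgc3*, in each CAF-vec (grey) and CAF-200 (red) sample, with bars for the mean and whiskers for the SD (n = 2 and 3, the lower whisker of *Pcdhgc4* in CAF-vec ends at the axis). The groups lie apart in the 3 cluster sums and in *Pcdhgc3*, and overlap in the other 2 panels.

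*Pcdhgc3* carried most of the gamma difference. It is the C-type gamma gene that is found in many tissues outside the brain, and at 43.2 CPM per kb over all samples it had the highest level per length of the 91 members. It was 367 and 363 CPM in CAF-vec and 152, 157 and 150 CPM in CAF-200. The spread within each group was small beside the distance between them (limma adjusted *p* = 0.00185, log2 fold-change -1.25, SE 0.0836), and the adjusted *p* was 0.0223 to 0.0267 without 1 CAF-200 sample. *Pcdhgc3* made up 64.3 to 71.2% of the gamma sum in CAF-vec and 46.7 to 50.2% in CAF-200. Without it, the gamma sum was 148.2 and 201.7 CPM in CAF-vec and 173.1, 155.4 and 155.5 CPM in CAF-200, so the groups overlapped and the log2 difference was -0.10. The CAF-vec values of that sum include *Pcdhgc4*, which differed widely between both samples. Without *Pcdhgc3* and *Pcdhgc4* the sum was 146.4 and 165.7 CPM in CAF-vec and 121.7, 124.5 and 118.3 CPM in CAF-200, without overlap (log2 difference -0.36). *Pcdhgc3* begins at 37806364 on chromosome 18 and ends with the other gamma genes at 37841873, and 38.5% of its exonic bases are shared.

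*Pcdhgc4*, which is needed for survival of cortical interneurons, was 1.86 and 35.9 CPM in CAF-vec and 51.5, 30.9 and 37.1 CPM in CAF-200. The CAF-vec samples lay far apart and the second was within the range of CAF-200 (limma adjusted *p* = 0.188, log2 fold-change 2.09, SE 1.08). The fold-change was 0.12 without CAF-vec 1 and 4.06 without CAF-vec 2, where the adjusted *p* was 1.06e-05, so 1 library decides this value. Without *Pcdhgc4* the gamma sum had a log2 difference of -0.92. *Pcdhgc5* was 42.7 and 42.1 CPM in CAF-vec and 32.1, 31.3 and 31.1 CPM in CAF-200. Its log2 fold-change was -0.42 (limma adjusted *p* = 0.0143), with an adjusted *p* of 0.0752 to 0.0845 without 1 CAF-200 sample. The 3 C-type genes together were 411.9 and 440.6 CPM in CAF-vec and 235.5, 219.2 and 218.6 CPM in CAF-200.

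Of the 13 tested gamma genes, 7 fell and 0 rose, and 12 of the 13 had a negative fold-change, where 18.6% of all genes were lower by that call and 58.3% had a negative value (6 of 12 fell without *Pcdhga2*, which passed the filter through CAF-vec alone). By limma at an unadjusted *p* under 0.05, 6 of the 45 members were higher, and those were the 6 that rose, none of them in a cluster. Beside *Pcdhgc3*, *Pcdhgc5* and *Pcdhga2* the gamma genes that fell were *Pcdhgb7* (-0.77), *Pcdhga7* (-0.62), *Pcdhga3* (-0.59) and *Pcdhgb1* (-0.46, log2 fold-changes). Of these 7 only *Pcdhgc3* kept the call in every alternative tried. *Pcdhgb7* lost it in 1, *Pcdhga2*, *Pcdhga7*, *Pcdhgb1* and *Pcdhgc5* in 4 and *Pcdhga3* in 5. *Pcdhgb7* was 8.55 and 7.87 CPM in CAF-vec and 4.61, 4.86 and 4.36 CPM in CAF-200 (limma adjusted *p* = 0.00737). *Pcdhgb1* was 9.12 and 8.54 CPM in CAF-vec and 6.17, 6.41 and 6.29 CPM in CAF-200. *Pcdhga7* was 6.96 and 8.98 CPM in CAF-vec and 5.29, 4.84 and 4.79 CPM in CAF-200. In these 3 genes the groups stood apart at moderate levels. *Pcdhgb2*, with a mean of 11.4 CPM per kb of exon in CAF-vec (second to *Pcdhgc3* among the members there) and 9.95 CPM per kb in CAF-200 (below *Pcdhgc3* and *Cdh2*), did not pass the test. It was 46.0 and 65.0 CPM in CAF-vec and 48.1, 50.9 and 46.8 CPM in CAF-200, with overlap (limma adjusted *p* = 0.434, log2 fold-change -0.17). Its log2 fold-change was 0.077 without CAF-vec 2 and -0.42 without CAF-vec 1. The A-type genes summed to 39.2 and 41.5 CPM in CAF-vec and 30.1, 30.6 and 29.3 CPM in CAF-200, and the B-type genes to 64.5 and 82.1 CPM and to 59.5, 62.6 and 58.0 CPM. The 8 untested gamma genes had at most 0.557 CPM in any sample.

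In the beta cluster 6 of the 18 tested genes fell and 0 rose, and 13 had a negative fold-change, beside the 18.6% and 58.3% of all genes (5 of 17 fell without *Pcdhb6*, which passed the filter through CAF-vec alone). Each of the 6 lost the call in at least 1 of the alternatives tried. *Pcdhb20* lost it in 1, *Pcdhb19* in 3, *Pcdhb6*, *Pcdhb15* and *Pcdhb22* in 4 and *Pcdhb13* in 6. The beta genes have single coding exons and few shared bases, so their values depend less on how reads were divided, although their coding sequences are alike. *Pcdhb20* was 5.55 and 4.72 CPM in CAF-vec and 2.79, 2.40 and 2.37 CPM in CAF-200 (limma adjusted *p* = 0.00833, log2 fold-change -0.90). *Pcdhb15* was 7.40 and 6.55 CPM in CAF-vec and 3.94, 4.27 and 3.98 CPM in CAF-200 (-0.71, limma adjusted *p* = 0.00931). *Pcdhb22* was 9.78 and 10.4 CPM in CAF-vec and 7.12, 6.08 and 6.41 CPM in CAF-200 (-0.59, limma adjusted *p* = 0.0145). These had the higher levels among the genes that fell, and in each the CAF-200 samples were all below CAF-vec. *Pcdhb19* (-0.71) and *Pcdhb13* (-0.55) fell from levels of 3.29 CPM or less. The most abundant beta genes were not among them. *Pcdhb16* was 18.6 and 20.9 CPM in CAF-vec and 19.6, 19.8 and 19.9 CPM in CAF-200 (limma adjusted *p* = 0.973, log2 fold-change 0.0045), and *Pcdhb17* was 17.8 and 14.6 CPM in CAF-vec and 13.8, 12.9 and 13.0 CPM in CAF-200 (-0.28, limma adjusted *p* = 0.122). *Pcdhb16* and *Pcdhb17* together made up 38.2 to 38.3% of the beta sum in CAF-vec and 42.1 to 42.6% in CAF-200. The 12 tested beta genes that missed the threshold had log2 fold-changes of -0.40 to 0.23. Of the 4 untested genes, *Pcdhb1* was at 0 in every sample and *Pcdhb4*, *Pcdhb8* and *Pcdhb10* reached at most 0.579 CPM.

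The alpha cluster was nearly silent. *Pcdhac2*, its C-type gene at the end of the cluster, was 1.91 and 2.03 CPM in CAF-vec and 1.65, 1.44 and 1.46 CPM in CAF-200 (limma adjusted *p* = 0.135, log2 fold-change -0.29). It made up 93.6% of the alpha sum in CAF-vec and 76.4 to 89.1% in CAF-200. Of the other alpha genes, 7 were at 0 in every sample and 5 reached at most 0.292 CPM, the value of *Pcdha9* in CAF-200 2. *Pcdha9* was 0.0373 and 0.0692 CPM in CAF-vec and 0.131, 0.292 and 0.262 CPM in CAF-200, below the filter and untested.

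**Figure D4:**
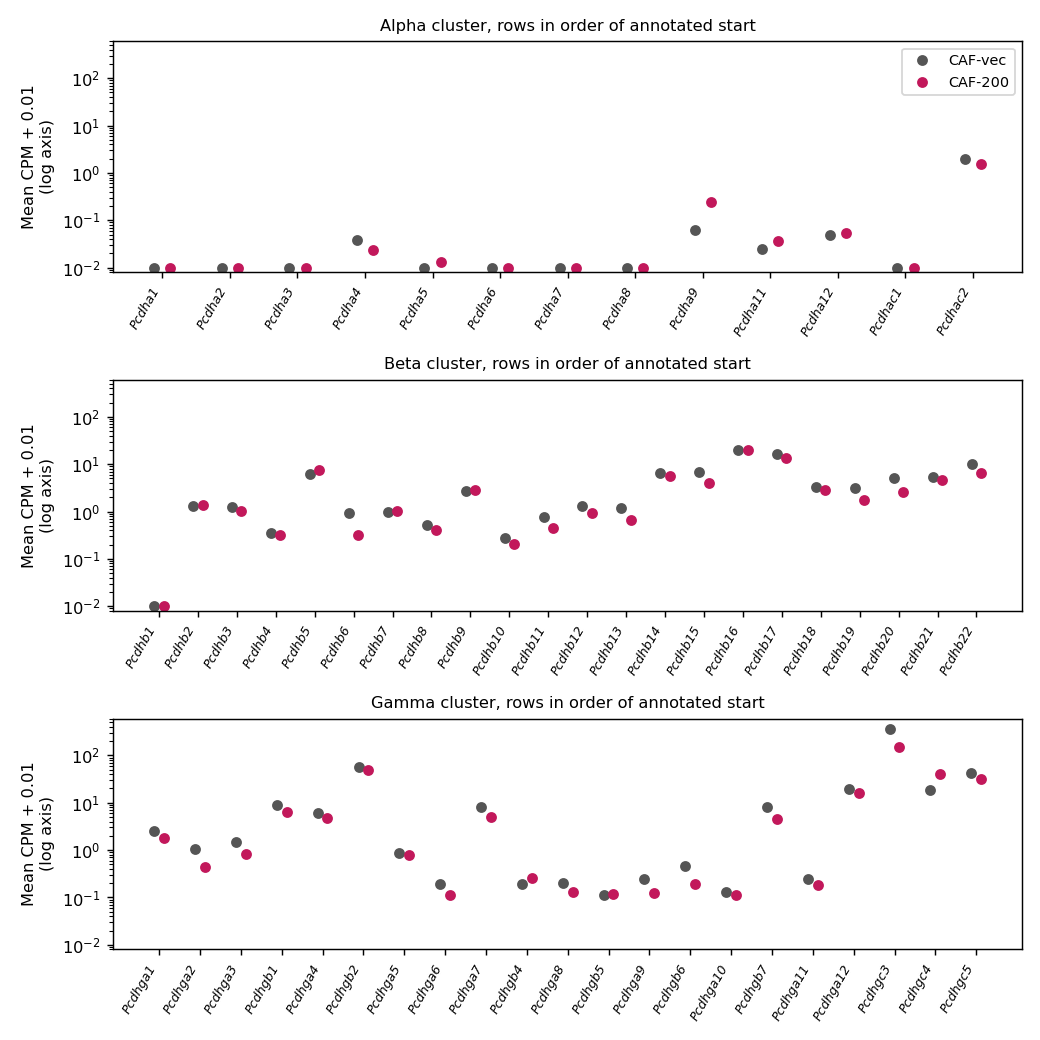
Mean CPM plus 0.01 (log axis) of each gene of the alpha, beta and gamma clusters in CAF-vec (grey) and CAF-200 (red), in the order of their annotated starts. *Pcdhac2*, last in the alpha cluster, and *Pcdhgc3*, followed by 2 more genes in the gamma cluster, had the highest levels of their clusters, with *Pcdhgb2* next in gamma, and in the beta cluster *Pcdhb16* and *Pcdhb17* were highest.

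The proteins that cadherins and protocadherins work with were read from 5 lists with 76 genes, of which 49 were tested. At an adjusted *p* under 0.05, 10 fell (20.4%) and 9 rose (18.4%), where the shares of all genes tested were 18.6% and 11.9%, and 8 of 48 rose without *Pkp2*. Of the 49, 0 passed the stricter call in either direction (at an unadjusted *p* under 0.05 by limma, 12 were lower and 12 higher). The median log2 fold-change was -0.028. Without CAF-vec 2, 20 of these genes were lower and 15 higher, and without 1 CAF-200 sample 1 was lower and 1 to 4 were higher. The core catenins that hold classical cadherins to actin did not pass. alpha-catenin (*Ctnna1*) was 425 and 303 CPM in CAF-vec and 325, 311 and 310 CPM in CAF-200 (limma adjusted *p* = 0.397, log2 fold-change -0.19). beta-catenin (*Ctnnb1*) was 382 and 371 CPM in CAF-vec and 341, 331 and 354 CPM in CAF-200 (-0.14, limma adjusted *p* = 0.281). p120-catenin (*Ctnnd1*) was 113 and 80.7 CPM in CAF-vec and 102, 93.9 and 96.1 CPM in CAF-200 (0.025, limma adjusted *p* = 0.911).

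Of the 17 tested catenins and adhesion partners, 3 fell (17.6%, near the 18.6% of all genes) and 5 rose (29.4%, beside 11.9%), or 4 of 16 without *Pkp2*. With 1 CAF-200 sample left out, 0 to 1 of the 17 fell and 0 to 3 rose. Nectins, adhesion molecules that assemble junctions beside cadherins, were among those that rose: *Nectin3* was 15.9 and 21.0 CPM in CAF-vec and 32.9, 31.5 and 37.4 CPM in CAF-200 (limma adjusted *p* = 0.011, log2 fold-change 0.87), and *Nectin1* (0.61) and *Nectin2* (0.55) rose as well. The plakophilin *Pkp1* (0.71), which belongs to desmosomes, rose from levels at or below 3.81 CPM in CAF-vec. *Pkp2*, another plakophilin, was 0.294 and 0.299 CPM in CAF-vec and 1.38, 0.896 and 0.994 CPM in CAF-200, and passed the filter through CAF-200 alone. *Vcl*, which encodes vinculin and reinforces junctions and focal adhesions under tension, was 136 and 142 CPM in CAF-vec and 91.4, 92.0 and 92.2 CPM in CAF-200 (-0.60, limma adjusted *p* = 0.00636). The p120 relative *Arvcf* (-0.75) and the alpha-catenin relative *Ctnnal1* (-0.58) also fell. Of the 7 enzymes that cut or process cadherins, 5 fell and 0 rose: the gamma-secretase genes *Psen2* (-0.77), *Psenen* (-0.52) and *Ncstn* (-0.33), *Adam15* (-0.44) and *Furin* (-0.37). Of all genes 18.6% were lower, and without 1 CAF-200 sample 0 to 1 of these 7 enzymes fell. *Adam10*, which cuts N-cadherin, did not pass the test. Among the 10 tested WAVE complex genes and kinases bound by protocadherins, *Ptk2b* (0.97) and *Ptk2* (0.44), both focal adhesion kinases, rose and 0 fell. That was 20.0% higher, beside 11.9% of all genes, and 1 of the 10 rose without any 1 CAF-200 sample. Of the 11 genes that regulate the protocadherin clusters, *Smchd1* (0.45), which represses clustered genes, and the cohesin subunit *Smc3* (0.36) rose, and *Ctcf* did not pass. That was 18.2% higher, beside 11.9% of all genes, and 0 of the 11 rose without any 1 CAF-200 sample. In the other cadherin superfamily genes 4 of 27 were tested, of which *Clstn1* (-0.59) and *Fat4* (-0.46) fell and *Fat1* had 0.31 without passing.

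**Figure D5:**
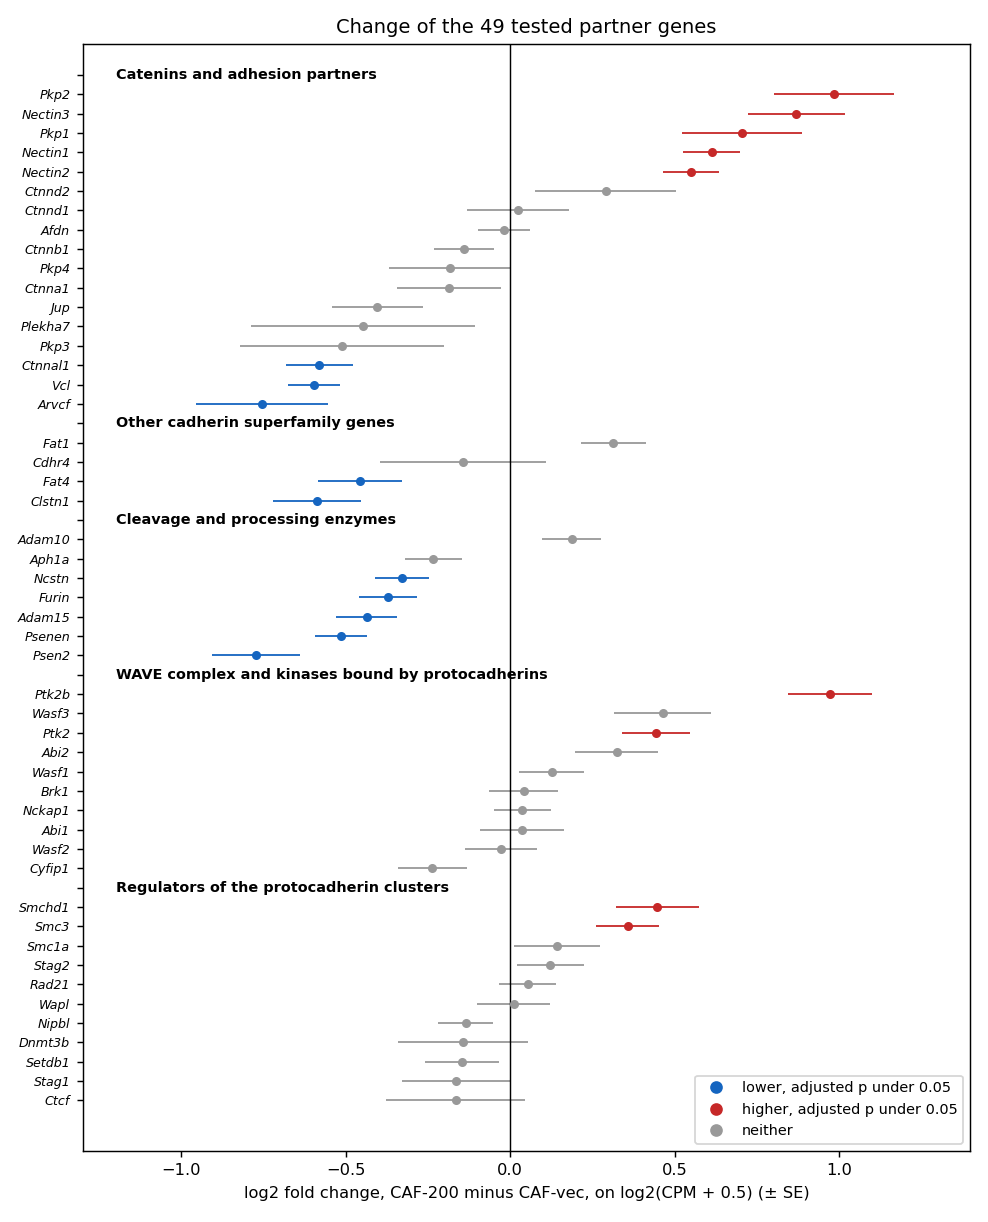
The log2 fold-change (CAF-200 minus CAF-vec, horizontal axis) of each of the 49 tested partner genes with its standard error, by list, with blue for genes that fell, red for genes that rose and grey for the rest. The coloured points among the processing enzymes are all blue, those among kinases and cluster regulators all red, and the catenin list holds both.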

How the data were processed

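Stranded mRNA libraries were made from 2 CAF-vec and 3 CAF-200 samples. The deposited data are 1 table by the authors, in CPM and with TMM in its name, which lists 21835 genes, and all 5 sample columns were used. The submitters' processing notes name FastQC, cutadapt, Trimmomatic, STAR, RSEM, edgeR and GRCm38 (mm10), without roles. The labels and the study's methods differ on the resistance marker of the vector and the RNA kit, and the account of the infection names normal lung fibroblasts, where the labels and the account of the RNA name CAFs. The methods state triplicates, and 2 CAF-vec samples were analysed here. How reads of exons shared between genes were divided is not stated, so single genes of the alpha and gamma clusters are uncertain.

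Whole reads could not be recovered from the CPM values, so edgeR and DESeq2 were not run, although the study's methods name edgeR, and the depth per sample is unknown. Of the genes, 12175 reached 0.5 CPM in 2 samples or more. These were fitted in limma 3.58.1 (R 4.3.3, variance trend) on log2(CPM + 0.5), and *p* values were adjusted by Benjamini-Hochberg. The script was tested on simulated data. Thresholds of the stricter call are those of the study's volcano plot. Names, exons and 3′-UTRs came from GENCODE M21 (21795 identifiers named), computed with Python 3.11.15, pandas 2.3.3 and numpy 2.4.6.

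The members and lists were chosen with earlier results of these data known. Named members were those at an adjusted *p* under 0.05, the 10 of highest mean CPM, and *Cdh1*, *Cdh2*, *Cdh3*, *Cdh5*, *Cdh11* and *Cdh13*, which came to 31, and other members were named after their values were seen. Partner genes named were those called, with *Ctnna1*, *Ctnnb1* and *Ctnnd1*, with 1 gene of these lists not reported here, and *Zeb1* and *Zeb2* were added as targets of miR-200. Partner genes *Adam10*, *Ctcf* and *Fat1* were chosen after their values were seen. Alternatives were other pseudocounts, filters, thresholds and scalings, no variance trend, a block for the replicate number, and fits without each sample.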

Additional observations from a re-analysis of the deposited data

How the results depend on the processing

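Over 13 alternatives, the 27 named tested members gave 338 values, of which 269 kept direction and call, 65 lost the call, 2 gained it and 2 reversed (*Pcdhb16*, from -0.078 without CAF-vec replicate 1 to 0.087 without CAF-vec replicate 2, and *Pcdhgb2*, from -0.42 to 0.077). The cause of the changes was not tested. The 2 members lower by the stricter call became 5 with a fold threshold of 0.5, and 0 to 3 with 1 sample left out. The 1 member higher became 2 with median centring, quantile normalization, a pseudocount of 0.1 CPM or an adjusted *p* of 0.05, 3 at a fold-change beyond 0.5, and 0 to 5 with 1 sample left out. Without a CAF-200 sample no member passed the stricter call, while by limma 18 to 19 were lower and 6 higher at an unadjusted *p* under 0.05, and over all genes 0 were lower and 0 to 1 higher by that stricter call. The 17 members that fell became 11 with at least 1 CPM in every sample (32 tested), and 3 to 17 with 1 sample left out, and the 6 that rose became 3 to 7. Partner genes numbered 1 to 20 lower and 1 to 15 higher with 1 sample left out. Leaving out a CAF-vec sample assumes that the lone sample varies like CAF-200, although the CAF-vec samples differed more.

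With the replicate number as a block, 1 member was lower by the stricter call, 4 members fell, and 1 partner gene fell and 3 rose. Only numbers 1 and 2 are shared. Deviations correlated at 0.249 for number 1 and 0.134 for number 2, beside 0.119 for CAF-vec 2 with CAF-200 3. As there are only 2 CAF-vec samples, their deviations are equal and opposite. CAF-200 1 thus gave 0.249 with CAF-vec 1 and -0.249 with CAF-vec 2. The correlations therefore cannot decide whether the numbers pair the samples. The main fit has no block, and the fit with a block stands as an alternative.

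The median of the tested members (-0.29) was -0.24 with at least 1 CPM in every sample, -0.20 with median centring, -0.13 without a filter, -0.34 with a pseudocount of 0.1 CPM and -0.21 with quantile normalization. In the same fits the median of all genes (-0.094) was -0.0997, 0.0027, -0.028, -0.098 and -0.016. The gamma sum (-0.78) was -0.70 with quantile normalization, -0.68 with centring, -0.84 to -0.71 with 1 sample left out and, in alternatives chosen after seeing the data, -0.10 without *Pcdhgc3*, -0.92 without *Pcdhgc4* and -0.36 without both. The beta sum (-0.27) was -0.20 and -0.17 with quantile normalization and centring, and the alpha sum (-0.16) was -0.080 with centring. Tests with edgeR and DESeq2 were not run.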
